A study of Drosophila melanogaster with 2 samples.

Results

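The 10 genes moody, Gs2, bdl, pnt, repo, gcm, gcm2, loco, wrapper and Nrx-IV act in the fate and function of Drosophila glia, and binding of the castor protein (cas) at them was read from peak lists. They were named by symbol and make up 10 of the 13968 protein-coding genes of the chromosome arms in the Ensembl annotation, and all 10 were found there. An entry of a peak list was counted for a gene when its summit, the base of highest signal, lay in the gene body or within 2 kb of it. The study performed chromatin immunoprecipitation with sequencing on whole Drosophila melanogaster embryos of 0 to 24 hours from the transgenic strain cas-GFP, which makes castor fused to eGFP, and an antibody against GFP precipitated the fusion. The only group had 2 biological replicates that share this genotype, with no treatment and no second condition, so no comparison between groups was possible. The labels give no promoter or cell type for the transgene beyond an insertion that targets cas. Chromatin was sonicated to 200 to 800 bp, and control libraries were not used here. Each value averages over all cells of whole embryos, so the share of cells in which a site was bound cannot be told apart from how strongly it was bound in them. The peak lists hold no expression values, and the presence of glia in the samples could not be checked.

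Castor is a zinc-finger transcription factor that embryonic neuroblasts express late in their temporal series. Lateral glia arise when a precursor expresses gcm, a transcription factor that turns on repo, a homeodomain factor found in nearly all glia outside the midline. Mature glia seal the nerve cord against the haemolymph with septate junctions, wrap axons and recycle transmitter.

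The conservative list, which joins both replicates and keeps entries by their IDR, the irreproducible discovery rate, which scores how well the rank of an entry repeats between a pair of peak sets, held 5 peaks at 4 of the genes. They are shown because every later result on bound glial genes rests on them. The sequences run from 50 bases before to 50 bases after each summit on the plus strand of dm6, read from the RefSeq genome, and capitals mark ATTTTA or TTTTTTT or their reverse complements, the only matches among the 6 words searched.

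moody, chrX:2050235-2050335: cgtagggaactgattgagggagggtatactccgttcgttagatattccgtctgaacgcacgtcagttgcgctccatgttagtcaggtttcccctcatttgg

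Gs2, chrX:11423355-11423455: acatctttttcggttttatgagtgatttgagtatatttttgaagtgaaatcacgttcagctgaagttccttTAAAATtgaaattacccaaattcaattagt

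bdl, chr2L:4333086-4333186: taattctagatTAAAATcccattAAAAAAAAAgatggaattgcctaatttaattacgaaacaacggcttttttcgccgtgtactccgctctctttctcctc

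pnt, stronger peak, chr3R:23335656-23335756: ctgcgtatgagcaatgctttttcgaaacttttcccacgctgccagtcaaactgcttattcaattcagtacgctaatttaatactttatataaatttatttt

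pnt, weaker peak, chr3R:23334989-23335089: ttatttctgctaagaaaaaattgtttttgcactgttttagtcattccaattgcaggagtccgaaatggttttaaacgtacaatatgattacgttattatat

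The moody peak was short enough to print whole. Its 178 bases, chrX:2050190-2050367 on the plus strand, lie just upstream of the moody start, which reads on the minus strand, and none of the 6 words occurs in them.

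moody, whole peak: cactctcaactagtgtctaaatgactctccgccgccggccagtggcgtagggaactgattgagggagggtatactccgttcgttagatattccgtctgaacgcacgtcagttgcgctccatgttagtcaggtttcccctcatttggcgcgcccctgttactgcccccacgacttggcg

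Each word was searched on both strands. The first was TATCGA and the second, which contains it, was TATCGATA. The others were ATCGAA, then ATTTTA, then the run TTTTTTT, and last ATGCGGGT, which is the binding word of the Gcm protein. A longer run of T can hold overlapping matches. ATTTTA occurred in the windows of bdl and Gs2 and in 31.5% of the 1879 conservative windows, against 15.5% of windows of the same length laid end to end along the arms. TTTTTTT occurred in the bdl window, in 12.5% of the conservative windows and in 8.65% of arm windows. TATCGA (9.53% of conservative windows), TATCGATA (2.71%), ATCGAA (7.18%) and ATGCGGGT (0.160%) occurred in none of the 5, and their shares along the arms were 3.73%, 0.277%, 6.46% and 0.134%. At least 1 of the 6 words was present in 2 of the 5 windows and in 49.4% of all conservative windows.

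Base composition differed among the windows. The moody window held 50.5% G and C, bdl held 34.7%, the stronger pnt window 32.7%, and the Gs2 and weaker pnt windows 28.7% each. The mean over the 1879 conservative windows was 35.3% ± 10.6 (SD), so that moody lay over 1 SD above it and the other 4 within 1 SD of it.

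Of the 10 genes, 4 had a conservative peak (40%, exact Clopper-Pearson 95% interval 12.2 to 73.8, counting error only), against 20.1% of all protein-coding genes. The same 4 genes, moody, Gs2, bdl and pnt, had a peak in the other combined list, called pooled here (22.8% of all genes), in the list of replicate 1 (14.3%) and in that of replicate 2 (14.4%). The remaining 6, repo, gcm, gcm2, loco, wrapper and Nrx-IV, had none in any of these lists. The interval includes the shares of all genes. The 10 were not drawn at random but chosen with earlier results of these data known. The interval thus cannot test a difference from all genes. Longer genes had more chances to hold a summit. A peak was found for 15.9% of the genes whose window, the body plus 2 kb on each side, was under 8 kb, 25.8% of those from 8 to 12 kb, 31.4% of those from 12 to 30 kb and 35.9% of longer ones, with limits chosen after the members' windows were known. The member counts in these classes were 0 of 3, 3 of 4, 0 of 2 and 1 of 1. The median window was 10.6 kb for the members and 6.16 kb for all genes.

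**Figure D1:**
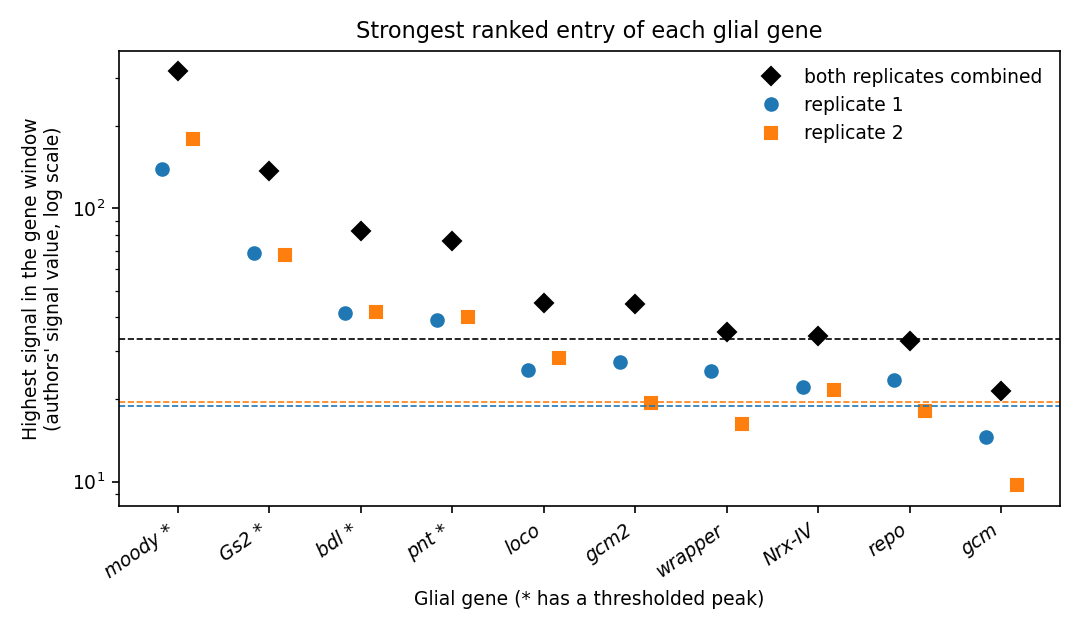
The highest signal of any ranked entry in each gene's window (log axis) in the combined list and in each replicate's own list; dashed lines are the medians over all protein-coding genes in the list of the same colour. The 4 genes with a thresholded peak (asterisks) lie between 75.6 and 317 in the combined list and the other 6 between 21.4 and 44.9.

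Among the genes of fate, pnt alone had a peak. pnt encodes an ETS transcription factor at the end of the epidermal growth factor receptor pathway and is needed for glial differentiation. It lies at chr3R:23290231-23346167 on the minus strand and has 3 transcript starts. The stronger peak (chr3R:23335551-23335860, summit 23335706) had a signal of 75.6, with 39.2 in replicate 1 and 40.0 in replicate 2. The signal is the authors' own value for each peak, not scaled between lists. As deposited, the values of the replicates were close, and both entries passed their own threshold. The weaker peak (chr3R:23334884-23335193, summit 23335039) had 61.9, with 29.9 in replicate 1 and 34.1 in replicate 2. Only replicate 2 passed for this peak, with a -log10 IDR of 2.15 against 1.38 in replicate 1.

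The pnt summits were 667 bp apart in intron 3 of the 8 introns of the longest transcript, an intron of 24.3 kb. They lay 10.5 and 11.1 kb downstream of the distal start, and over 20 kb upstream of the other starts. No protein-coding start of another gene was nearer, PolE1 being the next at 12.4 kb from the stronger summit. At the starts themselves the highest entry was one of 31.04, 87 bp inside the distal start, with a -log10 IDR of 1.06. In the conservative list the stronger peak ranked 975 and the weaker 1379 of 1880 by signal, so both were of middle or lower signal.

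repo, at chr3R:18236192-18239602, had 11 ranked entries and no peak. Ranked entries are all regions the authors scored, whether or not they passed the threshold. The highest, 32.8 with a -log10 IDR of 0.65, lay 1255 bp upstream of the start. Replicate 2 held an overlapping entry of 15.8 and replicate 1 held none. Within 500 bp of the start the highest entry was 16.3. Its 11 entries ran from 9.07 to 32.8, and the strongest entries of the replicates, 23.6 and 18.2, were 1907 bp apart.

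gcm, at chr2L:9579498-9581745, had the lowest highest entry of the 10. It was 21.4, 262 bp inside the start, with 9.10 in replicate 1, 9.71 in replicate 2 and a -log10 IDR of 0.16. Of all protein-coding genes, 14.6% had a lower highest entry. gcm2, the paralogue that acts beside gcm, lies 26.8 kb away at chr2L:9608562-9612706. Its highest entry reached 44.8, 27.5 in replicate 1 and 14.0 in replicate 2, but that summit was 66 bp from the start of the neighbouring gene Trx2 and beyond the gcm2 end. At the gcm2 start itself the highest entry was 25.9.

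Of the signalling genes of the barrier, moody had the strongest peak of the 10 and loco had none. moody encodes a G protein-coupled receptor of the glia that form the blood-brain barrier, and loco a regulator of G protein signalling that acts with it. The moody gene lies at chrX:2044292-2050120 on the minus strand. Its peak (summit 2050285) had a signal of 317, with 139 in replicate 1 and 179 in replicate 2. All 3 entries had a -log10 IDR of 5, the highest value the lists give. The summit was 165 bp upstream of the distal moody start and 1.89 kb upstream of the other. The moody gene lies within CG4313, which is read on the opposite strand, and the summit fell in intron 2 of CG4313 transcripts. The nearest CG4313 start was 2399 bp away. With rank 58 of 1880, the moody peak was above 96.9% of conservative peaks. The next entry of the moody window, 696 bp upstream of the start, had 35.9 and did not pass (-log10 IDR 1.01).

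loco, at chr3R:22619968-22639387 with 4 starts, had 31 ranked entries. The highest was 44.9, 244 bp upstream of an internal start (summit 22633262). It was 11.6 in replicate 1 and 28.3 in replicate 2, and its -log10 IDR was 0.19 in the conservative ranked list but 1.77 in the pooled one. The replicates differed more in deposited value here than at any of the 5 peaks. Their own highest entries at loco were 25.5 and 28.3, and lay 3363 bp apart.

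**Figure D2:**
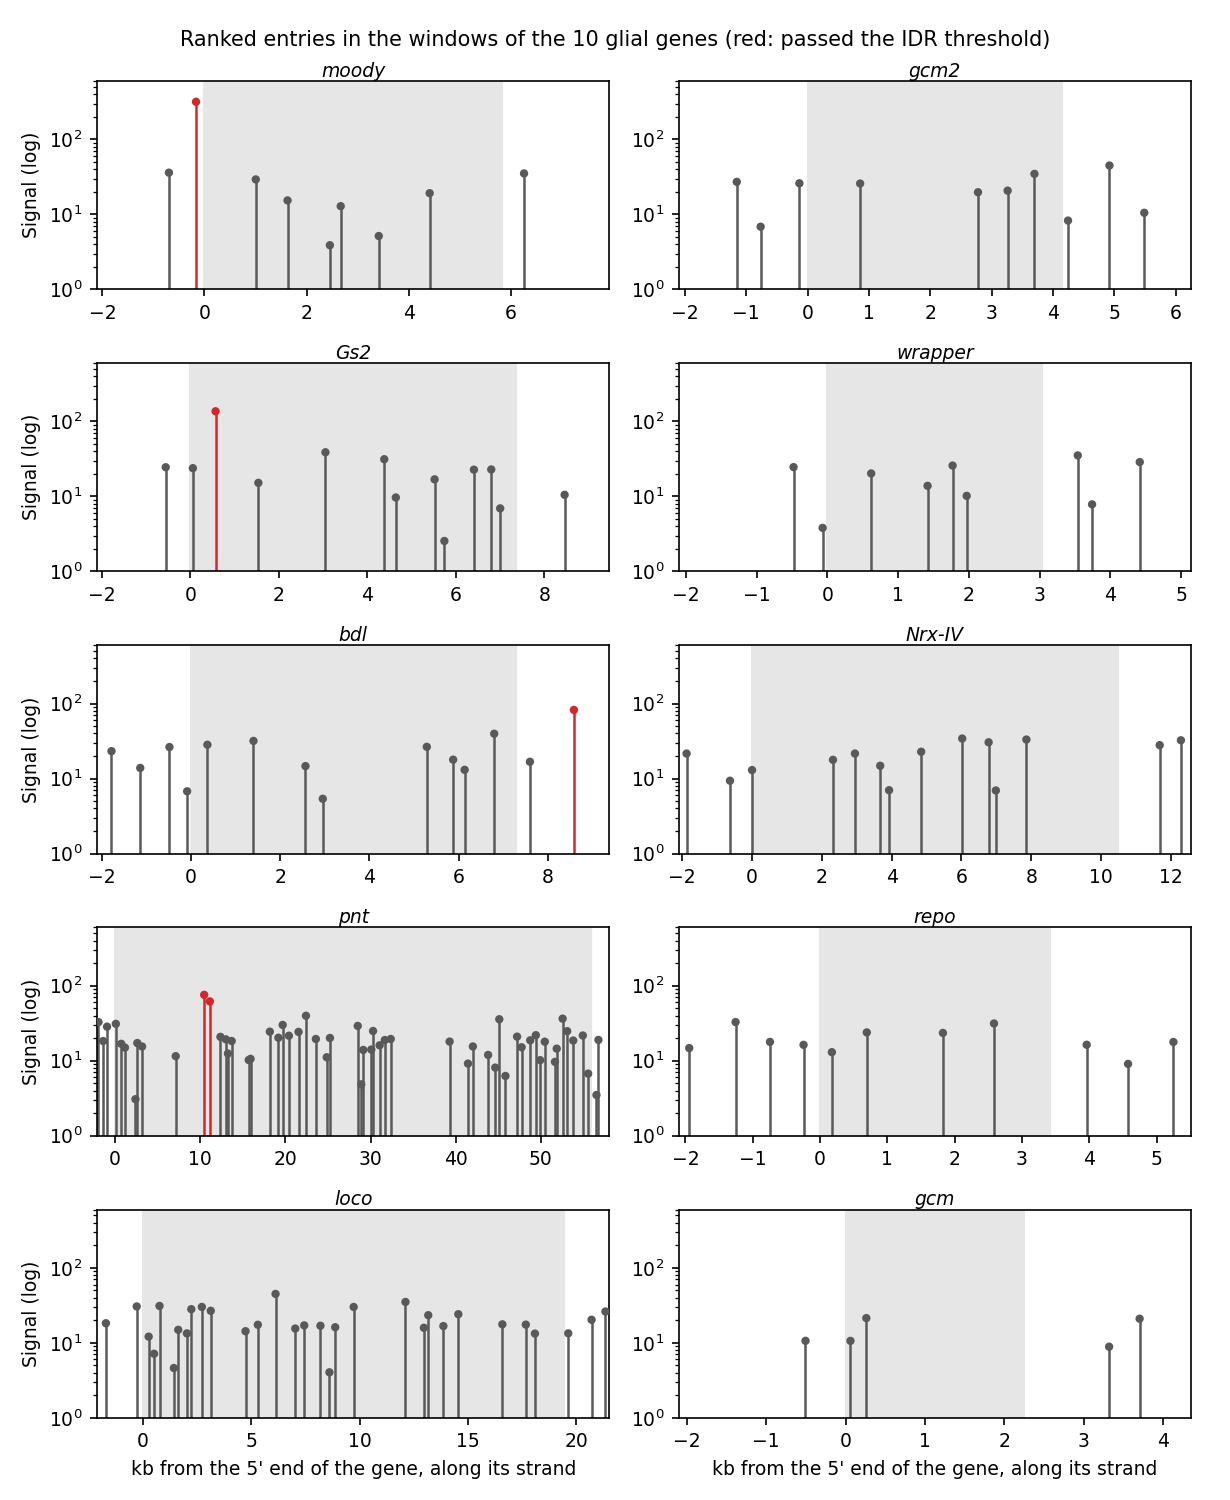
Signal of every entry of the conservative ranked list (log axis) by distance from the 5′ end of the gene, for the 10 genes in the order of their highest entry; grey shading is the gene body and red marks entries past the IDR threshold. The red entries are the single peaks of moody, Gs2 and bdl and the neighbouring pair in pnt, while entries of repo, gcm, gcm2, loco, wrapper and Nrx-IV all stay at or under 44.9.

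Nrx-IV, a transmembrane protein of septate junctions, lies at chr3L:12146519-12156990. None of its 14 ranked entries passed. The highest was 34.2 in a coding exon, with 11.7 in replicate 1, 21.6 in replicate 2 and a -log10 IDR of 0.28. Its promoter was among the weakest, with a highest entry of 12.99 at the start. Coding exons held 8 of the 14 summits, promoters 4 and introns 2. These classes count the starts and exons of any gene, not of Nrx-IV alone.

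The genes of surface proteins gave a peak beside bdl and none at wrapper. bdl (borderless) encodes an immunoglobulin-domain protein of axons and glia and lies at chr2L:4324554-4331830. Its peak (chr2L:4332981-4333290, summit 4333136) had a signal of 82.4, with 41.3 in replicate 1 and 41.8 in replicate 2, and a -log10 IDR of 3.32. The summit lay outside the gene, 1306 bp beyond its 3′ end and 8.58 kb from its start. It was 777 bp upstream of the start of Atet, an ABC transporter gene 2.08 kb downstream of bdl on the same strand. The highest entry within 500 bp of the bdl start was 28.3 and did not pass (-log10 IDR 0.32).

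wrapper encodes an immunoglobulin-domain protein of midline glia that binds Nrx-IV. The highest of its 9 entries was 35.3, with 25.5 in replicate 1, no overlapping entry in replicate 2 and a -log10 IDR of 1.19. That summit lay 502 bp beyond the gene and 43 bp from the start of CG13506. At the wrapper start the highest entry was 24.6, while replicate 1 had none and replicate 2 had 2.85.

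Gs2 encodes a glutamine synthetase, which makes glutamine from the glutamate that glia take up. It lies at chrX:11422832-11430197 and has a pair of starts. Its peak (chrX:11423250-11423559, summit 11423405) had a signal of 137, with 68.5 in replicate 1 and 67.5 in replicate 2. The -log10 IDR was 4.67 in the conservative list, 4.70 in replicate 1 and 4.06 in replicate 2. The summit fell between the starts, 573 bp downstream of the distal and 552 bp upstream of the proximal one, in intron 1 of the longer transcripts. Both distances exceed the 500 bp used here for promoters, so the peak is classed as intronic although it is close to a start. It ranked 308 of 1880 by signal. The next Gs2 entry, also intronic, had 38.8.

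The replicates gave similar deposited values at these peaks. The log2 ratio of replicate 1 to replicate 2 was -0.36 for moody, -0.19 for the weaker pnt peak, -0.03 for the stronger, -0.02 for bdl and 0.02 for Gs2. Over the 1858 conservative peaks with an entry in both replicates the median of this ratio was 0.02, with an SD of 0.51. The replicate summits were 12 bp apart at moody, 26 at Gs2, 47 and 56 at pnt and 80 at bdl. A conservative peak is kept because it repeats between the replicates, so the closeness of these values is largely fixed by that choice and supports nothing further. As a description, the highest entries of the replicates overlapped at the 4 genes with a peak and at 0 of the 6 without. Over all protein-coding genes with entries in both replicates they overlapped in 35.8% (4518 of 12606), and in 21.0% (2058 of 9802) of those without a conservative peak. Genes with a conservative peak make up the rest, so their share is above 35.8%. Overlap at the 4 genes with a peak is thus also largely fixed by how peaks are kept.

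**Figure D3:**
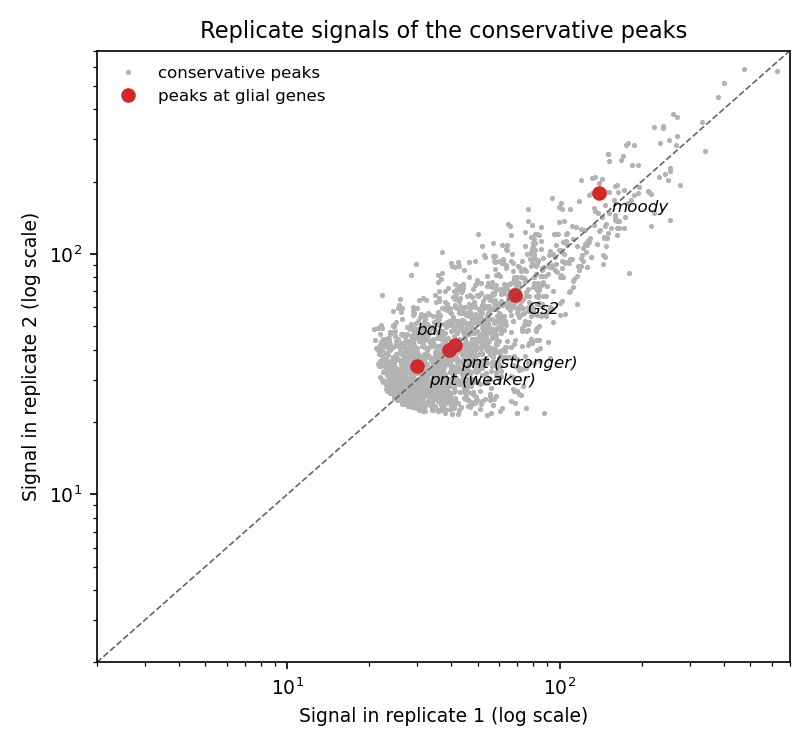
Signal of each conservative peak in replicate 1 and replicate 2 (log axes, highest overlapping ranked entry; 1858 peaks in grey, the 5 at glial genes in red); the dashed line marks equal values. The red points follow the line, moody being the farthest from it with a log2 ratio of -0.36.

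In the conservative list the peaks of the 10 genes stood apart from their other entries in signal and IDR, and less so in the pooled list. Peaks are kept by their IDR, so their separation from the other entries is largely fixed by that choice. The values are given as a description. Of 173 entries in the conservative ranked list, 5 passed and 168 did not. The lowest that passed was the weaker pnt peak, with 61.9 and a -log10 IDR of 2.63. The highest signal that did not pass was 44.9 at loco, and the highest -log10 IDR was 1.19 at wrapper. Of the entries, 153 had a -log10 IDR under 0.5, 11 from 0.5 to 1 and 4 from 1 to 2. In the pooled ranked list 8 of 184 entries lay between 1 and 2, the nearest to the threshold being loco at 1.77. In the list of replicate 1 the number was 2 of 113, the weaker pnt peak at 1.38 and an entry of bdl at 1.02, and in that of replicate 2 it was 0 of 141. All conservative peaks had a -log10 IDR of at least 2, but 1951 ranked entries did and 1880 were kept as peaks. At the 10 genes the 5 entries at or above 2 were the 5 peaks.

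**Figure D4:**
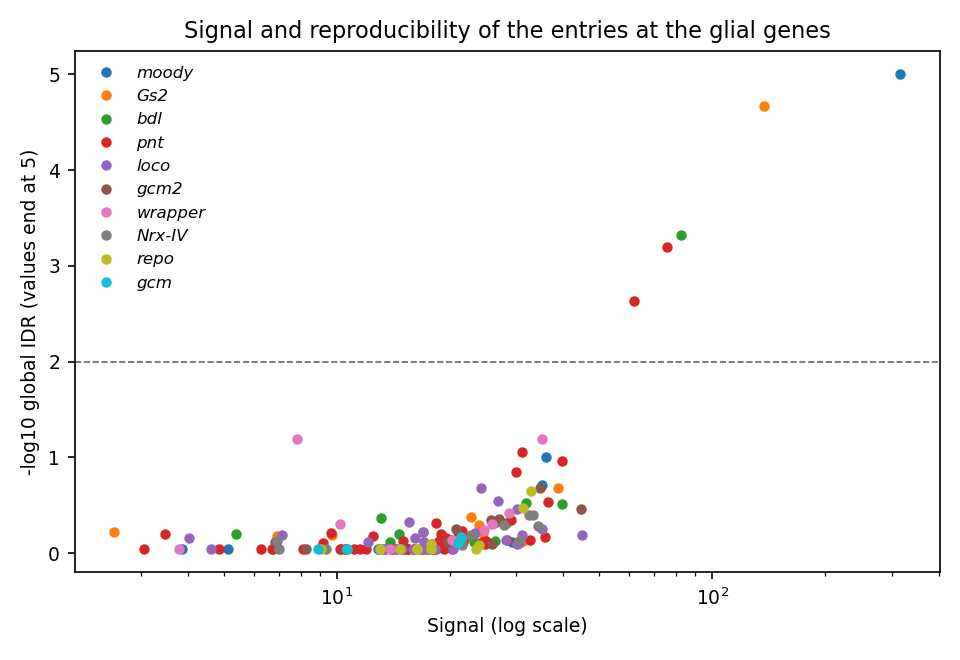
Signal (log axis) and -log10 global IDR of the 173 conservative ranked entries, coloured by gene; the dashed line marks 2, a level that all 1880 peaks of the thresholded list reach. The 5 entries above the line have signals from 61.9 to 317, and all others lie at or below 1.19.

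Per length, the windows of the 10 genes (159 kb) held 31.4 conservative peaks per Mb (exact Poisson 95% interval 10.2 to 73.3, counting error only), against 17.1 over the windows of all protein-coding genes and 13.7 over the arms. The interval includes both. It takes the peaks as independent, but the pnt summits lay 667 bp apart. The genes were also chosen with earlier results of these data known, so the interval cannot test a difference. Ranked entries numbered 1.09 per kb in the members, 0.846 in all gene windows and 0.763 over the arms. Among the members this density ran from 0.800 at gcm to 1.48 at repo, and the genes with peaks (0.916 to 1.24) lay within that range. The median of the highest signal was 44.9 for the 10 genes and 33.3 for all protein-coding genes, and 8 of the 10 were above the latter. At moody 99.0% of genes had a lower highest signal, at Gs2 95.6%, at bdl 88.7% and at pnt 87.3%. For repo the share was 48.2% and for Nrx-IV 52.6%, near the middle of all genes. In the replicates' own lists, 9 of the 10 were above the median of all genes in replicate 1 and 6 in replicate 2. A longer window has more chances to hold a high entry, and the median window was 10.6 kb for the members against 6.16 kb for all genes.

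**Figure D5:**
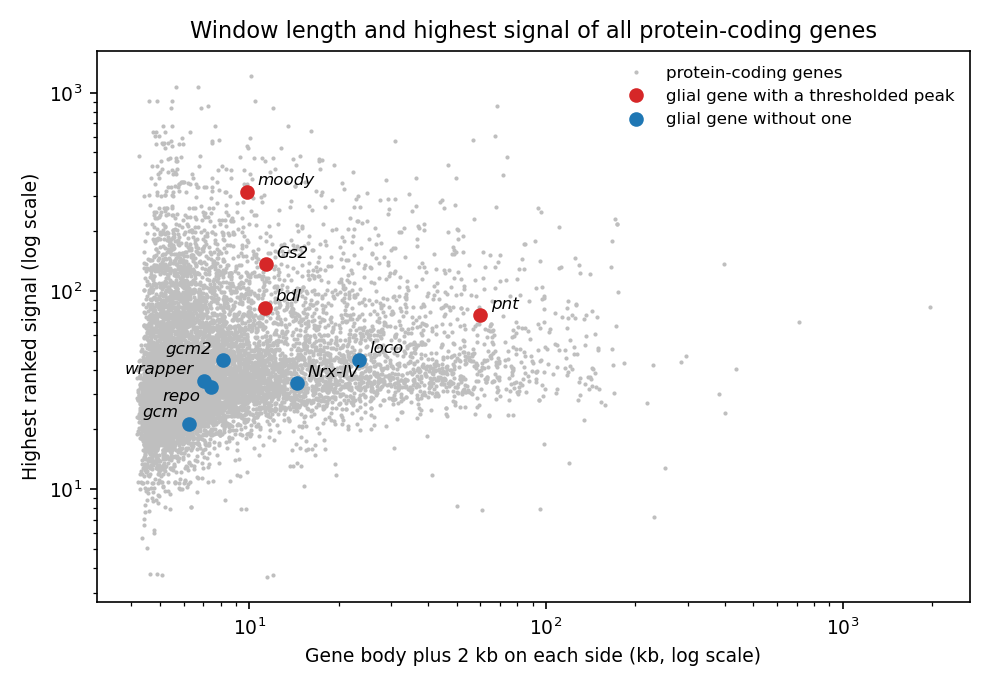
Highest signal in the conservative ranked list against window length for all protein-coding genes with an entry (grey, log axes) and the 10 glial genes. moody and Gs2 lie high among genes of their length, with 317 and 137, and gcm lies low, with 21.4.

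Genes that act around these 10 were counted in 5 lists. In all, 13 of 48 (27.1%) had a conservative peak, against the 20.1% of all genes. Over all genes that share was 25.8% for windows from 8 to 12 kb, 31.4% from 12 to 30 kb and 35.9% for longer ones. Median windows of the 5 lists ran from 11.2 to 42.6 kb, so the 20.1% is not matched for length. Signals and inputs of glial fate had 4 of 8, with a median window of 29.0 kb. They were numb (124), zfh1 (116 and 103), ths (102) and N (64.8 and 56.2). Both N summits were intronic, 27.6 and 22.6 kb from the N start, and the nearest start was that of CG18508, at 10.6 and 15.7 kb. The replicates differed most in deposited value at the zfh1 peak of 103, with 75.3 in replicate 1 and 22.9 in replicate 2. At numb they gave 78.4 and 44.1. ths encodes a fibroblast growth factor ligand, and its intronic summit was 1461 bp from its start. The genes without a peak were ttk, pros, htl and pyr, htl being the receptor for that ligand.

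The epidermal growth factor receptor pathway around pnt had 4 of 9. aos, a secreted inhibitor of the receptor, had an intronic peak of 129 (77.5 in replicate 1 and 52.3 in replicate 2) and a promoter peak of 69.1. aop, an ETS repressor that opposes pnt, had 3 peaks, of 109 in an intron (51.5 and 58.2 in the replicates) and of 62.5 and 60.6 upstream of its start. The ligand gene spi had a promoter peak of 100.3, with 39.5 in replicate 1 and 59.4 in replicate 2. The vn peak (52.2) was 111 bp from the start of mad2. The receptor gene Egfr and rho, Ras85D, rl and kek1 had none.

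Septate junction and barrier genes had 3 of 19. They were Pka-C1 (76.6), the protein kinase A catalytic subunit gene, vari (72.9, nearest to the start of Pomp) and yrt (62.8, with a weaker entry of 7.73 on the same replicate peaks). Genes of glial transport, metabolism and engulfment had 1 of 8, Gdh, a glutamate dehydrogenase gene, with 64.1 in an intron and 49.9 at its promoter. Among 4 genes of surface partners, tutl had a promoter peak of 53.3 (24.8 in replicate 1 and 37.3 in replicate 2), with a second entry of 3.06 on the same replicate peaks. tutl encodes a partner of the bdl protein, and the tutl gene ends 0.773 kb upstream of bdl. The counts differed in the replicates' own lists. Septate junction and barrier genes had 4 with a peak in replicate 1 and 1 in replicate 2, and the transport and metabolism genes had 1 and 0. The surface partners had 0 in both, so that tutl had a peak in neither. The fate list and the receptor pathway each had 3 in replicate 1 and 4 in replicate 2. Over the 5 lists the numbers were 11 and 9 of 48, against 14.3% and 14.4% of all protein-coding genes in the same replicate lists. The median window was 17.3 kb for the receptor pathway and 11.3 kb for septate junction and barrier genes. It was 11.2 kb for the transport and metabolism genes and 42.6 kb for the surface partners, against 6.16 kb for all genes.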

How the data were processed

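Peak lists on dm6 were deposited for each replicate (thresholded and ranked) and for both together (2 lists of each kind); the README texts name one thresholded list conservative, and the other is called pooled here. Of 1880 conservative entries, 1880 had a -log10 IDR of at least 2 in one combined ranked list and 1685 in the other, so the former is called the conservative ranked list. The signal values are the authors' own as deposited, in a column without a name, and not scaled between lists. The ranked lists give the deposited -log10 values of the global IDR, which end at 5. No source used here names the aligner, the peak caller or their settings, and control libraries were not used here. Read totals are not in the lists, so the depth is unknown.

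Summits were compared with Ensembl release 115 genes, and sequences came from the RefSeq Release 6 genome of dm6 coordinates. No entry or gene ran past the end of an arm. Promoters are within 500 bp of a transcript start. Replicate values are those of the strongest overlapping entry (1 bp) in the replicate's own ranked list. Windows of all genes gave the background, and no p-value was computed. The named genes were the 10 members, the neighbours of their summits and up to 4 bound genes of each list; further list genes were named to account for each list. The members and lists were chosen with earlier results of these data known. Of 48 listed symbols 1 was matched by a change of capitals. The window counting was tested on simulated data. Python 3.11.15, numpy 2.4.6, scipy 1.17.1, pandas 2.3.3 and matplotlib 3.10.9 were used. Alternatives were the pooled list, each replicate alone, margins of 0 and 5 kb, the nearest start, entry overlap and the upper 50% of peaks.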

Additional observations from a re-analysis of the deposited data

How the results depend on the processing

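The number of glial genes with a peak was 4 in the pooled list, in each replicate alone and with entry overlap in place of the summit. It was 2 with a margin of 0 (pnt and Gs2), since the moody and bdl summits lie outside the bodies, 3 with the nearest start (without bdl), 3 in the upper 50% of peaks by signal (without pnt) and 5 with a margin of 5 kb, which adds gcm2. Shares of all protein-coding genes are given here only for summits within 2 kb in the whole lists. The counts under the other rules thus have no background and cannot show a difference from all genes. Conservative peaks per Mb were 31.4 in the main list and 25.2 with a margin of 0. In the replicates' own lists, thresholded peaks per Mb were 25.1 in replicate 1 and 31.4 in replicate 2. The windows of all protein-coding genes held 11.4 and 10.4 in these lists, against 17.1 in the conservative list. Ranked entries per kb were 0.710 in the list of replicate 1 and 0.886 in that of replicate 2, against 1.09. Over all gene windows these were 0.491 and 0.688, against 0.846. The pooled ranked list holds 1879 of the 1880 conservative peaks, so it is no independent check of the signal. The highest signal of each gene was equal in it for all 10. With a margin of 0 it moved for 4 genes, to 29.2 from 317 at moody, to 39.7 from 82.4 at bdl, to 34.6 from 44.8 at gcm2 and to 25.8 from 35.3 at wrapper. With a margin of 5 kb it moved for 2, to 63.1 at gcm2 and to 39.3 at repo. It was lower for all 10 in each replicate's own list, where signals are not on the scale of the combined list. Without read totals, how far depth limits the 6 genes without a peak is unknown.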

Other observations

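The conservative peaks nearest to the 6 glial genes without one all lay outside their windows. The distance from the gene body was 4.17 kb for gcm2, 7.72 kb for Nrx-IV, 9.38 kb for gcm, 12.7 kb for wrapper, 15.8 kb for repo and 85.2 kb for loco. The nearest starts to these summits belonged to GlcAT-S (signal 63.1, 37 bp from the start) for gcm2, RhoGAP68F (66.2, 71 bp upstream) for Nrx-IV, brwl (146, 157 bp upstream) for gcm, CG7183 (235, 128 bp upstream) for repo and Irp-1A (57.5, 28 bp upstream) for loco. The summit nearest to wrapper (71.3) was 6643 bp from the closest start, that of babos. In the pooled list a peak of 58.4 near the start of Efa6 lay 32.3 kb from loco, nearer than in the conservative list.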
